A study of Mus musculus with 18 samples.

Results

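Complement is a cascade of plasma and tissue proteins that marks microbes, dying cells and synapses for removal. C1q, which opens the classical pathway, is built from the products of C1qa, C1qb and C1qc, and its proteases cleave C4 and C2 to form an enzyme that splits C3, the central protein on which all pathways converge. Factor B (Cfb) amplifies C3 cleavage through the alternative pathway, while factor I (Cfi) and the C1 inhibitor (Serping1) restrain the cascade. In the retina C1q comes largely from microglia, C3 and C4 can be made by glia, and complement has been studied in age-related macular degeneration and in diabetic retinopathy.

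The 9 complement genes described here, C1qa, C1qb, C1qc, C2, C4b, C3, Cfb, Cfi and Serping1, were taken by symbol from the count tables, which listed 35006 gene names. All 9 passed the expression filter and were among the 16183 genes tested. They were measured by poly(A) RNA sequencing of the retina in 18 libraries from male mice. WT mice were C57BL/6J (3 libraries of untreated mice), and Akita mice (4 libraries) carry the Ins2Akita mutation of an insulin gene on the C57BL/6 background and develop diabetes. NACET, an antioxidant made by esterifying N-acetylcysteine with ethanol, was drunk at 0.33 mg/mL in water, a daily dose of 50 mg/kg, between the ages of 4 and 24 weeks in the WT + NACET (6 libraries) and Akita + NACET (5 libraries) groups, and the other mice drank water alone. The labels do not say whether each library came from a separate mouse, so p-values measure the spread between libraries.

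Each library had between 11590384 and 18073791 counts in genes, of which ribosomal RNA genes were removed before scaling. Levels are given as CPM, that is, read counts normalised to the effective library size. The summed level of 10 rod genes was between 94823 and 220778 CPM per library, so that rods were present throughout. Ins2 had between 0 and 9 counts per library and could not check the genotype. WT + NACET stood apart from the other groups in genes unrelated to complement. Wdfy1 averaged 95.2 CPM ± 5.30 (SD, n = 6) there against 14.2 to 16 CPM in the other groups, and Acp1 2.48 CPM ± 0.451 (SD, n = 6) against 32.7 to 36.7 CPM. NACET and whatever else set these mice apart cannot be told apart in any comparison that uses them. Libraries also differed within groups in the summed CPM of 7 fibroblast and meninges markers. It was 551 in WT replicate 2 against 81.4 and 89.4 in the other WT libraries, and 312 in Akita replicate 3 against 49.6 to 125 in the other Akita libraries. WT + NACET replicate 5 was the highest of its group at 697, where the others had 224 to 560.

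The 3 C1q genes lie in a cluster of 18.7 kb on chromosome 4 (mm9), on the minus strand. C1qb is at 136436044 to 136442102, C1qc at 136445719 to 136448980 and C1qa at 136451832 to 136454718. C4b (34865325 to 34880827), Cfb (34993319 to 34999463) and C2 (34999549 to 35035397) share a stretch of 170 kb on chromosome 17, and C3 lies apart from them on the same chromosome at 57343397 to 57367559. Cfi is on chromosome 3 at 129539655 to 129578246 and Serping1 on chromosome 2 at 84605544 to 84615601. Exons of C2 overlap those of Zbtb12 on the other strand, and since counting was unstranded, reads there cannot be assigned to either gene with certainty. C4b has a close paralog, C4a, which had 0 to 9 counts per library, and reads that matched both equally well were not counted.

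RefSeq promoter windows (build GRCm38.p6), from 250 bases before to 50 bases after the start, were at hand for 3 of the 9 genes, C1qb (chr4:136886151-136886450, minus strand), C1qc (chr4:136892865-136893164, minus strand) and C3 (chr17:57228087-57228386, minus strand). C1qb and C1qc had the most closely matched levels of any pair of the 9 genes, and C3 was among the genes that differed between groups. All 3 windows at hand are shown. Each is printed in the direction of the gene, with the matches to 6 motifs in capitals:
C1qb: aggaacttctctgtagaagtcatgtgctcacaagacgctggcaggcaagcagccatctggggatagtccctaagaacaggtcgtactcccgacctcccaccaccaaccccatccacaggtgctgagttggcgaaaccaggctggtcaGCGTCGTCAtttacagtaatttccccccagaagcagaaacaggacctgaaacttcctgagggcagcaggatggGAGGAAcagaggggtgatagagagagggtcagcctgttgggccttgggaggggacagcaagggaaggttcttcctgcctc
C1qc: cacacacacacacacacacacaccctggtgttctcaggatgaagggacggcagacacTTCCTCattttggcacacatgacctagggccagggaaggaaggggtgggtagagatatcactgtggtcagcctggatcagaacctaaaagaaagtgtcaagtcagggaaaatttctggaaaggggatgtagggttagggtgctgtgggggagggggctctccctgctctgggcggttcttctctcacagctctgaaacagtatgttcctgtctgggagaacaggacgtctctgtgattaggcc
C3: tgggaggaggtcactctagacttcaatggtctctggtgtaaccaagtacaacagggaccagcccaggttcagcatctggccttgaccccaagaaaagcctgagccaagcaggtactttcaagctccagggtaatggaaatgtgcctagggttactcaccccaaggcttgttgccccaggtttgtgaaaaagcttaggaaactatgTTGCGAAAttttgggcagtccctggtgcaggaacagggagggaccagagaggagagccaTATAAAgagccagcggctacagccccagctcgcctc

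The motifs were searched on both strands. The PU.1-type ETS core GAGGAA, of a kind bound by a transcription factor of microglia and other myeloid cells, was found once in C1qb and once, on the reverse strand, in C1qc, and it occurs in 28.3% of 32851 promoter windows of the same length. C1qb also held 1 reverse-strand match to TGACNNNGC, the core of the antioxidant response element that NRF2 binds, which occurs in 12.4% of windows. C3 held 1 match to the C/EBP-type core TTGCNNAA (10.8% of windows) and 1 to the TATA box letters TATAAA (13.6%). The STAT site TTCNNNGAA (8.30%) and the interferon-stimulated response element (3.44%) had no match in the 3 windows.

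The order of the genes by level was set on counts per length. Over the 18 libraries C1qb averaged 11.7 CPM per kb of exon ± 4.32 (SD), Serping1 7.89 ± 5.06, C1qc 5.49 ± 1.79 and C1qa 4.38 ± 1.64, followed by C4b at 1.89 ± 1.34. Cfi had 1.09 CPM per kb ± 0.469 (SD), C3 0.373 ± 0.274, C2 0.309 ± 0.205 and Cfb 0.171 ± 0.0926. Neighbours in this order differed by less than the larger of their SDs, except C1qa from C4b and Cfi from C3. With the longest transcript as the length, C2 (0.474) came before C3, and C1qc rose to 8.82. Cfb rested on 1 to 16 counts per library and C3 on 7 to 87, while C1qb had 60 to 382, so the relative error of Cfb was the largest. As a rank among the tested genes, C1qb was at percentile 45.6 and Cfb at 1.99.

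**Figure D1:**
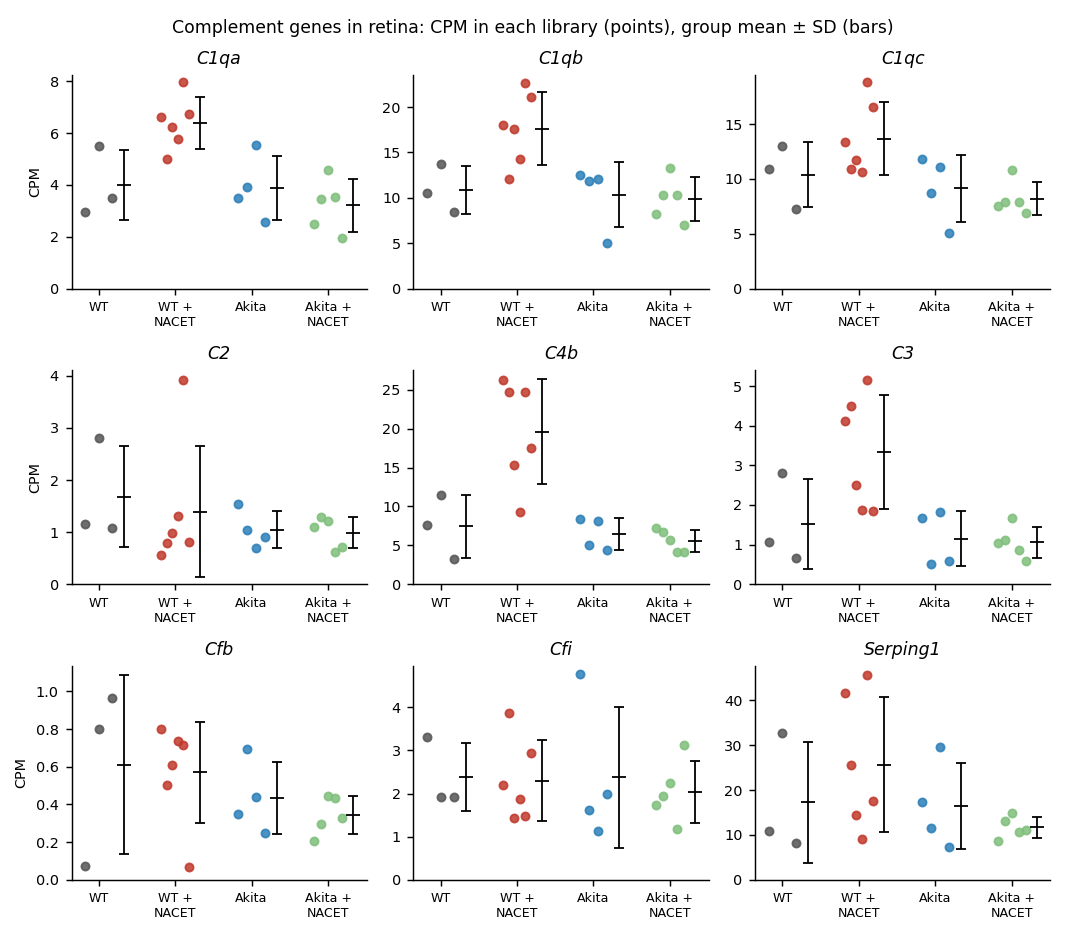
CPM of each of the 9 complement genes in every library (points, in replicate order) for WT, WT + NACET, Akita and Akita + NACET, with the mean ± SD of each group as a bar; each panel starts at 0. C4b, C3 and the C1q genes are highest on average in WT + NACET, and for C1qa, C3 and C4b no library of that group falls within the range of Akita + NACET.

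Akita and WT were compared to see whether complement genes differ in the diabetic retina. None of the 9 was called in the edgeR fit (adjusted p from 0.458 to 0.991), none had an unadjusted p below 0.05, and DESeq2 called none with all groups or with 2 groups in the fit. Of all genes, 7.64% were called in this comparison. All 9 estimates were negative, with a median log2 fold change of -0.17 beside -0.01 over all genes tested. The estimates were small against their errors, as shown by C1qa at -0.02 (95% CI -0.60 to 0.56) and C4b at -0.18 (95% CI -1.01 to 0.65). The negative signs rested in part on WT replicate 2, which was the highest WT library for 7 of the 9 genes. Without it, Serping1 was at 0.80 ± 0.62 (SE, adjusted p = 0.504), C3 at 0.42 ± 0.58 (SE, adjusted p = 0.722) and C4b at 0.27 ± 0.42 (SE, adjusted p = 0.759) by edgeR.

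C1qb, which encodes the B chain of C1q, had 10.5, 13.7 and 8.49 CPM in the 3 WT libraries and 12.6, 11.9, 12.1 and 4.97 CPM in the 4 Akita libraries. The ranges overlapped, and Akita replicate 4 lay far below the other Akita libraries. The same library was the lowest of its group for C1qa (2.57 CPM), C1qc (5.06 CPM), C4b (4.39 CPM) and Serping1 (7.38 CPM), and it had the lowest summed level of microglia markers of all 18 libraries, 74.5 CPM. In bulk tissue, fewer cells of a type and less RNA per cell cannot be told apart. Rods are the most numerous cells of the mouse retina, and the summed level of 10 rod genes was 146438 to 220778 CPM in Akita against 102870 to 139936 CPM in WT. The part of these shifts in the values was not tested.

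The diabetic groups, Akita + NACET and Akita, were compared to ask what treatment did to the same genes. None of the 9 was called (adjusted p from 0.472 to 0.939 in the edgeR fit), none had an unadjusted p below 0.05, and DESeq2 called none in either fit, while 9.65% of all genes were called. All 9 estimates were again negative, with a median log2 fold change of -0.21 beside -0.0032 over all genes. The largest difference was that of Serping1, -0.50 (95% CI -1.62 to 0.62). Akita replicate 3 was the highest Akita library for Serping1 (29.6 CPM) and C3 (1.82 CPM), and without it Serping1 was at -0.06 and C3 at 0.19 by edgeR (adjusted p = 0.959 and 0.854). For the C1q genes the intervals ran from -0.79 to 0.23 in C1qa, from -0.59 to 0.43 in C1qb and from -0.64 to 0.32 in C1qc. For C4b it ran from -0.97 to 0.50.

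Akita + NACET and untreated WT were then compared. Again none of the 9 was called in the edgeR fit (adjusted p = 0.9996 for each), none had an unadjusted p below 0.05, and DESeq2 called none, where 0.00618% of all genes were called. The 9 estimates lay between -0.84 (Cfb) and -0.14 (C1qb). These comparisons share the Akita or the WT libraries with those above, so their signs are not independent. Without WT replicate 2, C3 (0.29), Serping1 (0.29), C1qb (0.06) and C4b (0.04) were positive.

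In normoglycemic mice the comparison was between WT + NACET and WT. C4b and C3 had the largest differences of the 9 genes. C4b encodes complement C4, the substrate of the C1 proteases. It had 7.61, 11.4 and 3.25 CPM in the 3 WT libraries, and in the 6 WT + NACET libraries the lowest was 9.25, the median 21.1 and the highest 26.3 CPM. The groups overlapped only through WT replicate 2 at 11.4 CPM and WT + NACET replicate 4 at 9.25 CPM. The log2 fold change of C4b was 1.41 ± 0.38 (SE), a 2.67-fold higher level, with an adjusted p of 0.0643 in edgeR, above the threshold of 0.05.

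C3 had 1.08, 2.80 and 0.662 CPM in WT, while the lowest of the WT + NACET libraries was 1.84, the median 3.31 and the highest 5.17 CPM. WT replicate 2 lay inside the range of WT + NACET, and the difference was 1.17 ± 0.48 (SE, edgeR adjusted p = 0.189). C1qa had 2.94, 5.52 and 3.49 CPM in WT and from 5.0 through a median of 6.43 to 7.96 CPM in WT + NACET, a difference of 0.69 ± 0.26 (SE, edgeR adjusted p = 0.156). C1qb differed by 0.70 ± 0.26 (SE, edgeR adjusted p = 0.158). The other genes were further from the threshold. Their log2 fold changes were 0.58 in Serping1, 0.40 in C1qc, -0.05 in Cfi, -0.10 in Cfb and -0.23 in C2.

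In this comparison edgeR called 0 of the 9 genes and 1.48% of all genes. 4 of the 9, C1qa, C1qb, C3 and C4b, had an unadjusted p below 0.05, and the median log2 fold change was 0.58 beside -0.01 over all genes. DESeq2 called 1, C4b (1.42, adjusted p = 0.00226), with all groups in the fit, and 3, C1qa (adjusted p = 0.0400), C1qb (0.0215) and C4b (0.0344), with only the 2 groups. For 0 of the 9 genes did the libraries of the groups separate without overlap, as they did for 11.5% of all genes. Without WT replicate 2 the estimates were higher, 1.86 ± 0.42 (SE) for C4b and 1.94 ± 0.54 (SE) for C3, but with fewer libraries none passed in edgeR (adjusted p = 0.0634 and 0.124). Without WT + NACET replicate 4, C4b passed (1.56, edgeR adjusted p = 0.0292). The share of aligned reads outside annotated exons averaged 16.3% in WT and 12.7% in WT + NACET. With this share as a covariate in edgeR, C4b was at 1.58 (adjusted p = 0.189) and C3 at 1.28 (adjusted p = 0.482). C1qa was at 0.39 (adjusted p = 0.702) and C1qb at 0.46 (adjusted p = 0.677) in that fit.

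**Figure D2:**
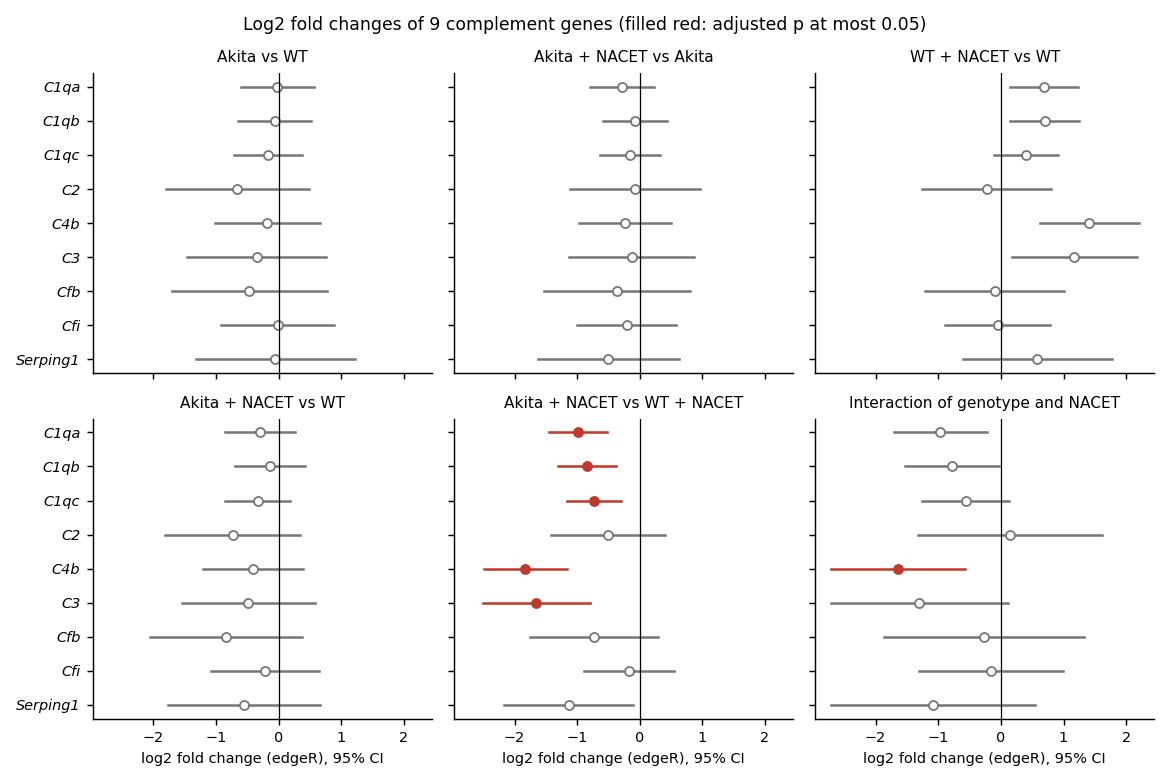
Log2 fold changes from edgeR (points) with 95% confidence intervals (lines) of the 9 complement genes in the 5 group comparisons and the interaction of genotype and NACET; filled red points have an adjusted p of at most 0.05. Called genes appear in 2 panels: 5 genes lower in Akita + NACET than in WT + NACET, and C4b in the interaction.

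The genotypes were also compared among treated mice. Between Akita + NACET and WT + NACET, 5 of the 9 genes were called, all lower in Akita + NACET. They were C4b, C3 and the 3 C1q genes, that is, the classical pathway's recognition molecule, its substrate C4 and the central component C3. Of all genes, 13.3% were called in either direction and 7.26% were called lower. The median log2 fold change of the 9 was -0.84 beside -0.00015 over all genes tested.

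C4b had 7.17, 6.66, 5.62, 4.10 and 4.11 CPM in the 5 Akita + NACET libraries, all below the lowest WT + NACET library at 9.25 CPM. Its mean was 5.53 CPM ± 1.41 (SD, n = 5) against 19.6 ± 6.75 (SD, n = 6). This was a 3.55-fold lower level, or -1.83 ± 0.32 on the log2 scale (SE, edgeR adjusted p = 0.00244). C3 had 1.03, 1.12, 1.66, 0.870 and 0.588 CPM in Akita + NACET, also all below the lowest WT + NACET library at 1.84 CPM. C3 differed by -1.65 ± 0.41 (SE, edgeR adjusted p = 0.0145), 3.15-fold lower, on counts of 9 to 26 in the Akita + NACET libraries.

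C1qa had 2.48, 3.48, 4.59, 3.54 and 1.96 CPM in Akita + NACET, none of which reached the lowest WT + NACET library at 5.0 CPM. Its log2 fold change was -0.99 ± 0.22 (SE, edgeR adjusted p = 0.00775). C1qb had 8.2, 10.3, 13.3, 10.3 and 7.05 CPM in Akita + NACET, against 12.1 at the lowest, 17.8 at the median and 22.7 CPM at the highest in WT + NACET. Only Akita + NACET replicate 3 entered the range of WT + NACET, and the log2 fold change was -0.84 ± 0.22 (SE, edgeR adjusted p = 0.0196). C1qc had 7.58, 7.90, 10.8, 7.89 and 6.86 CPM against 10.6, 12.6 and 18.8 CPM at the lowest, median and highest, with 1 library in the overlap again, and differed by -0.74 ± 0.21 (SE, edgeR adjusted p = 0.0261). The C1q genes moved by similar amounts, with overlapping intervals.

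The libraries of the groups did not overlap for 3 of the 9 genes, C1qa, C3 and C4b, as for 8.01% of all genes. Serping1, the C1 inhibitor, had 8.61, 13.2, 14.8, 10.6 and 11.1 CPM in Akita + NACET, and 9.02, 21.6 and 45.7 CPM at the lowest, median and highest in WT + NACET. The WT + NACET libraries were widely spread, and the difference of -1.14 ± 0.48 (SE) had an adjusted p of 0.123 in edgeR. DESeq2 with only the 2 groups in the fit called Serping1 (-1.13, adjusted p = 0.0349). C2 was at -0.51 (95% CI -1.42 to 0.41), Cfb at -0.74 (95% CI -1.76 to 0.29) and Cfi at -0.17 (95% CI -0.89 to 0.55). Cfi, the serine protease that inactivates C3b and C4b, had group means between 2.04 and 2.38 CPM in all 4 groups.

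The share of aligned reads outside annotated exons was 16.4% ± 2.11 (SD, n = 5) in Akita + NACET and 12.7% ± 2.74 (SD, n = 6) in WT + NACET. With this share as a covariate, 1 of the 5 genes, C4b, was still called (-1.97 ± 0.38 SE, adjusted p = 0.0167), and C3 was at -1.74 (adjusted p = 0.0917) and C1qa at -0.71 (adjusted p = 0.167). Without Akita + NACET replicate 5, which had the highest such share, 2 were called, C4b and C1qa. C1qc also lost its call without Akita + NACET replicate 1, 2 or 4 and without WT + NACET replicate 5 or 6. C4b was called in each of its 21 alternative fits, C1qa in 20 of 21, C1qb in 18 of 21, C3 in 18 of 20 and C1qc in 12 of 21, and all 5 genes were lower in every fit.

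**Figure D3:**
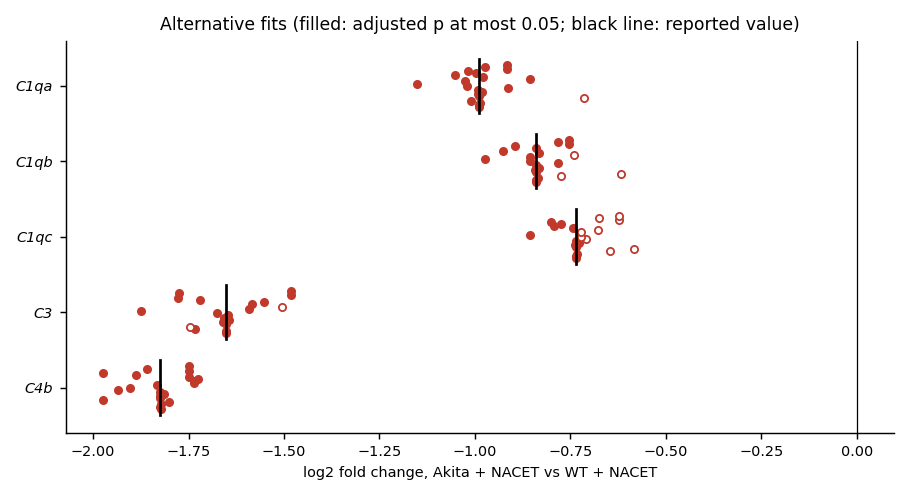
Log2 fold change of the 5 called genes between Akita + NACET and WT + NACET in each alternative fit (points, filled where the adjusted p was at most 0.05); the black line marks the reported value. All points lie below 0, between -1.97 and -0.58, and C1qc has the most open points, 9 of 21.

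The interaction term asks whether NACET moved a gene by a different amount in Akita than in WT. Of the 9 genes, 1 was called, C4b, and of all genes 20.3%. The difference of C4b between treated and untreated libraries was 1.41 in WT and -0.23 in Akita on the log2 scale. Its interaction term was -1.65 ± 0.51 (SE, edgeR adjusted p = 0.0313). The term uses WT + NACET, so NACET and whatever else set those mice apart cannot be told apart in it. C1qa was next, at -0.97 ± 0.36 (SE, edgeR adjusted p = 0.0588). 8 of the 9 estimates were negative, with a median of -0.78 beside 0.0042 over all genes. The call of C4b was lost in 8 of 26 alternative fits. They included the fit with the share outside exons as a covariate (-2.02, adjusted p = 0.456), the fit without WT replicate 1 or 3, and the fits without Akita replicate 1 or 3 and without Akita + NACET replicate 4 or 5. C1qa passed in edgeR without Akita replicate 4 (-1.12, adjusted p = 0.0322), where C1qb passed too (-1.0, adjusted p = 0.0244). C1qa also passed without WT replicate 2 (-1.27), Akita + NACET replicate 3 (-1.13) or WT + NACET replicate 2 (-1.03). With the share outside exons as a covariate, C1qa was at -0.30 (edgeR adjusted p = 0.887) and C1qb at -0.27 (edgeR adjusted p = 0.904).

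The 9 genes fell into those that followed one another across libraries and those that did not. Pearson's r of log2 CPM over the 18 libraries was 0.947 for C1qb and C1qc, 0.924 for C3 and C4b, 0.903 for C1qa and C1qb and 0.841 for C3 and Serping1. These pairs remained alike after each group was centred on its mean, with r of 0.923, 0.842, 0.823 and 0.859. C2, Cfb and Cfi had r of at most 0.408 with any other of the 9 genes. These values are descriptions, since the libraries share depth and tissue makeup. The ratio of C1qa to C1qb counts was similar in the groups, with means of 0.397 ± 0.11 in the 4 Akita, 0.321 ± 0.0297 in the 5 Akita + NACET, 0.364 ± 0.0726 in the 3 WT and 0.369 ± 0.036 in the 6 WT + NACET libraries (SD).

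Levels of the 9 genes were compared with the summed CPM of 17 microglia markers, none of them a complement gene. The sum was 100 to 131 CPM in WT, 127 to 176 CPM in WT + NACET, 74.5 to 136 CPM in Akita and 82.6 to 116 CPM in Akita + NACET. Of the 17 markers, 10 were called lower in Akita + NACET than in WT + NACET, where the 3 C1q genes were lower too, and the part of the markers in that result was not tested. Of all genes, 13.3% were called in that comparison and 7.26% were called lower. In WT + NACET vs WT, where 1.48% of all genes were called, 1 marker, Ctss, was called higher. In Akita + NACET vs Akita, where 9.65% of all genes were called, 1, P2ry13, was called lower (-0.73 ± 0.22 SE, edgeR adjusted p = 0.0403). No C1q gene was called in either by edgeR, while DESeq2 with only the 2 groups called C1qa and C1qb in WT + NACET vs WT. Of 8 tested markers of perivascular and blood macrophages, edgeR called 0 in Akita + NACET vs WT + NACET or in WT + NACET vs WT, and 3 and 0 had an unadjusted p below 0.05. C1qb followed the sum with Pearson's r = 0.952 and Spearman's rho = 0.917 over 18 libraries (permutation p = 1e-05 for both, the smallest that 100000 permutations can give, adjusted p = 3e-05 and 4.5e-05 over 9 relations). C1qc had r = 0.952 and rho = 0.920, and C1qa r = 0.874 and rho = 0.837. Without the 2 libraries farthest from the median, Akita replicate 4 and WT + NACET replicate 5, r was 0.920 for C1qb, 0.917 for C1qc and 0.842 for C1qa. Within groups, after centring, it was 0.932, 0.923 and 0.715.

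C4b (r = 0.787, rho = 0.847) and C3 (r = 0.776, rho = 0.847) also followed the microglia sum over all libraries (permutation, adjusted p = 0.000315 and 0.000396 for r). Within the 6 WT + NACET libraries r was 0.15 for C4b and -0.03 for C3, against 0.80 for C1qb. With groups centred, neither passed (permutation, adjusted p = 0.0631 for each). Serping1 had r = 0.663 (permutation, adjusted p = 0.004), which fell to 0.497 without the 2 farthest libraries and then did not pass (permutation, adjusted p = 0.0778). C2 (r = 0.398), Cfb (0.146) and Cfi (0.063) did not pass.

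The summed CPM of 15 reactive gliosis genes, such as Gfap, the intermediate filament of activated Müller cells and astrocytes, was 522 to 795 in WT + NACET and 272 to 452 in the other 3 groups. Because the libraries formed separate clusters on this sum, relations were taken within each, with 27 relations in the family, and they were chosen after the data had been seen. Among the 12 libraries of the other groups, C4b followed the sum with r = 0.916 and rho = 0.930 (permutation p = 4e-05 and 3e-05, adjusted p = 0.00081 for both), and without Akita replicate 4 and WT replicate 2, the farthest from the median, r was 0.958. C3 had r = 0.882 and rho = 0.853 (permutation p = 0.00022 and 0.00071, adjusted p = 0.00119 and 0.00319), and r = 0.831 without those libraries. C1qc (r = 0.856, rho = 0.804, permutation, adjusted p = 0.00147 and 0.00877) and Serping1 (r = 0.819, rho = 0.769, permutation, adjusted p = 0.00225 and 0.0139) passed as well, with r = 0.689 and 0.677 without those libraries. C1qb passed by r (0.716, permutation, adjusted p = 0.0194) but not by rho (0.622, adjusted p = 0.0875), and its r fell to 0.397 without those libraries, so that it rested on them. C1qa, C2, Cfb and Cfi did not pass. Within WT + NACET, r was 0.826 for C4b and 0.730 for C3, and none of the 9 genes passed (exact permutation, adjusted p = 0.107 for C4b and 0.206 for C3, n = 6).

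Of the 14 gliosis genes tested, 10 were called lower in Akita + NACET than in WT + NACET, 5 higher in WT + NACET than in WT, and 0 in Akita + NACET vs Akita by edgeR (1 with an unadjusted p below 0.05). In Akita vs WT 1 was called higher. Of all genes, 13.3%, 1.48%, 9.65% and 7.64% were called in these comparisons, in the same order. Gfap averaged 192 CPM ± 48.7 (SD, n = 6) in WT + NACET and 54.1 to 74.5 CPM in the other groups. The summed CPM of 11 pigment epithelium and choroid genes was 695 to 1590 in WT + NACET, 114 to 725 in Akita + NACET, 87.6 to 289 in Akita and 176 to 1007 in WT, and all 11 genes were detected in each group. The ranges of WT and WT + NACET overlapped. Of the 11 genes, edgeR called 1, Tyr, lower in Akita + NACET than in WT + NACET, and 0 in WT + NACET vs WT, Akita + NACET vs Akita or Akita vs WT, where 3, 5 and 3 had an unadjusted p below 0.05. The part of these tissues in the levels of complement genes was not tested. Of 6 tested fibroblast and meninges genes, edgeR called 0 in WT + NACET vs WT or in Akita + NACET vs WT + NACET. In these comparisons 1 and 0 had an unadjusted p below 0.05. The estimates were positive for 2 and negative for 4 in the first, and 3 and 3 in the second. The sum therefore does not stand for each gene of its list. Over all 18 libraries the fibroblast and meninges sum was related to 6 of the 9 genes, which include the 5 that were called between Akita + NACET and WT + NACET. Pearson's r was 0.834 for C3, 0.811 for C1qa, 0.764 for C4b, 0.757 for C1qb, 0.731 for C1qc and 0.716 for Serping1 (permutation, adjusted p from 0.00081 to 0.0027), and rho was between 0.670 and 0.835 (permutation, adjusted p from 0.00081 to 0.00912). Without Akita replicate 4 and Akita + NACET replicate 5, the farthest from the median, r was between 0.588 (C1qc) and 0.783 (C3). The fibroblast and meninges sum averaged 435 CPM in WT + NACET and 142 to 241 CPM in the other groups. Groups were not centred for this relation, so differences between groups and a relation within groups cannot be told apart in it. C2, Cfb and Cfi did not pass. With WT replicate 2 and WT + NACET replicate 5 both left out, 4 of the 5 genes called between Akita + NACET and WT + NACET passed, C4b at -1.75 ± 0.30 (SE, adjusted p = 0.00345), and C1qc did not (-0.62, adjusted p = 0.0609).

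**Figure D4:**
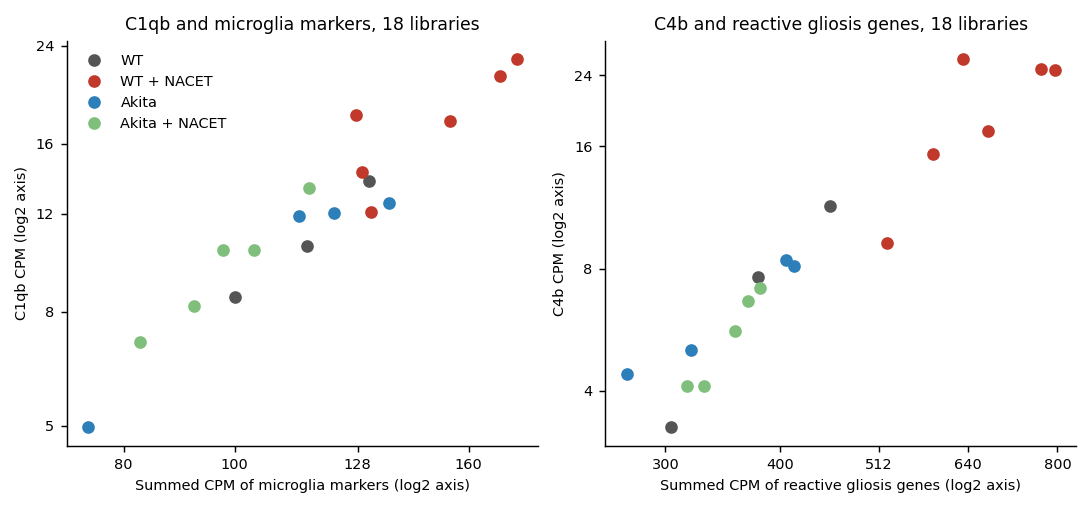
C1qb CPM against the summed CPM of 17 microglia markers (left) and C4b CPM against the summed CPM of 15 reactive gliosis genes (right), 1 point per library, coloured by group, on log2 axes. C1qb rises with the microglia sum across all groups (r = 0.952), while on the right the 6 WT + NACET libraries form a cluster of their own at sums of 522 and above.

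The genes whose levels were most like those of the 9 were sought among 14464 other genes with a mean of at least 1 CPM, by Pearson's r over 18 libraries. For C1qb they included Fcer1g (r = 0.939) and Ctss (0.925), for C1qc they included Fcer1g (0.910) and Rhoc (0.908), and for C1qa they were Fcer1g (0.915), Echs1 (0.901) and Adi1 (0.895). C4b was most like Steap4 (0.931), Serpina3n (0.925) and Nnt (0.907), and C3 most like Serpina3n (0.907), B2m (0.904) and Clu (0.897). With groups centred, r of C4b was 0.755 with Steap4, 0.771 with Serpina3n and 0.718 with Nnt. Like Wdfy1, Nnt was highest in WT + NACET, at 19.7 CPM ± 2.53 (SD, n = 6) against 9.94 to 12.2 CPM in the other groups. Serping1 was most like Ifitm3 (0.947), Pdlim4 (0.946) and Rhoj (0.941). For C2 the highest value was 0.797 (Rasl12) and for Cfi 0.723 (Grik4). Cfb was under the minimum level and was not compared. Ctss belongs to the microglia list, and Serpina3n, Steap4 and B2m to the gliosis list.

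The rest of the pathway was described from a list of 56 complement genes, of which 51 were in the tables and 22 were tested. The other 29 in the tables had too few counts to be tested, among them most genes of the lectin and terminal pathways, whose products are largely made in the liver. The most abundant genes of the wider list were the soluble regulators Vtn (vitronectin, an inhibitor of the terminal complex) with a mean of 1321 CPM and Clu (clusterin, likewise) with 781 CPM, and the membrane regulator Cd59a, which blocks the terminal complex, with 140 CPM. C1qbp, a mitochondrial protein that binds C1q, had 70.2 CPM. Of the 22, 5 were called between Akita + NACET and WT + NACET, where 13.3% of all genes were called. Clu (-0.69 ± 0.15 SE, adjusted p = 0.0058), Vtn (-0.35 ± 0.11 SE, adjusted p = 0.0418) and C1qbp (-0.28 ± 0.08 SE, adjusted p = 0.0314) were lower, as were 5 of the 9 genes, and Csmd1 and Csmd3 were higher.

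Csmd1 and Csmd3 encode large membrane proteins with complement control domains that are expressed in neurons. They were the 2 genes of the 22 called between Akita and WT, where 7.64% of all genes were called, a share near that of the 22. Csmd1 and Csmd3 were both lower, by -1.21 ± 0.35 (SE, edgeR adjusted p = 0.0401) and -1.01 ± 0.24 (SE, edgeR adjusted p = 0.0227). Both were higher in Akita + NACET than in Akita, where 9.65% of all genes were called, by 1.10 ± 0.31 (SE, edgeR adjusted p = 0.0357) and 1.16 ± 0.22 (SE, edgeR adjusted p = 0.0161). These comparisons share the 4 Akita libraries. Vtn, the third gene called in the latter, fell by 0.45 on the log2 scale (edgeR adjusted p = 0.0304). Csmd1 was also the 1 gene called between WT + NACET and WT, where 1.48% of all genes were called, and it was lower (-1.32 ± 0.31 SE, edgeR adjusted p = 0.036). Its mean level was 1.46 CPM ± 0.306 in the 4 Akita and 1.35 CPM ± 0.652 in the 6 WT + NACET libraries, and 3.41 CPM ± 0.669 in the 3 WT and 3.15 CPM ± 0.985 in the 5 Akita + NACET libraries (SD), an order unlike that of C4b. The share of aligned reads outside exons was likewise lower in Akita (mean 11.5%) and WT + NACET (12.7%) than in WT (16.3%) and Akita + NACET (16.4%). The part of this share in the levels of Csmd1 and Csmd3 was not tested.

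The interaction was called for 6 of the 22, beside 20.3% of all genes, a share near that of the 22. The term was negative for Vtn (-0.78), Cd59a (-0.73) and C1qbp (-0.43) and positive for Csmd1 (2.42), Csmd3 (1.65) and Csmd2 (1.15). None of the 22 was called between Akita + NACET and WT by edgeR, and 1 had an unadjusted p below 0.05. The median of the 22 between Akita + NACET and WT + NACET was -0.31.

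**Figure D5:**
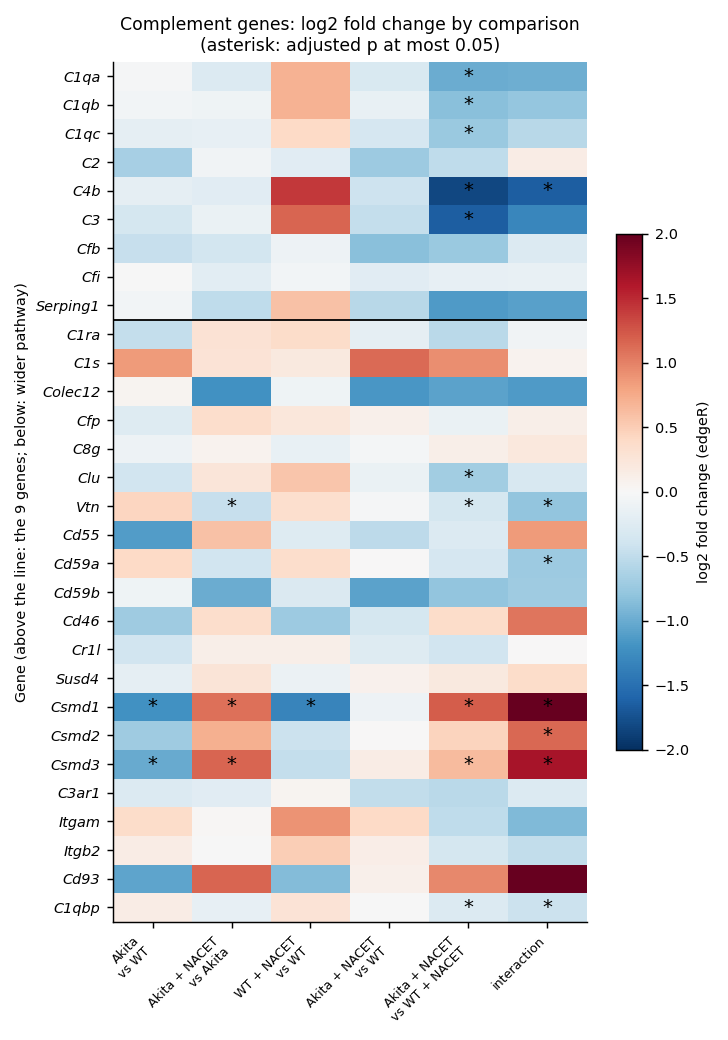
Log2 fold changes from edgeR (colour, from -2 to 2) of the 9 complement genes (above the line) and of 21 further complement genes (below it) in the 5 group comparisons and the interaction; an asterisk marks an adjusted p of at most 0.05. Among the 9 genes the asterisks stand in Akita + NACET vs WT + NACET (5) and in the interaction (C4b), and below the line Csmd1 carries an asterisk in every comparison except Akita + NACET vs WT.

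Signals known to induce complement genes were read from lists of interferon and NF-kB response genes. Of 14 interferon response genes tested, 4 (Irf9, Gbp2 and H2-D1 among them) were called lower and 1 (H2-K1) higher in Akita + NACET than in WT + NACET, and edgeR called 0 between WT + NACET and WT or between Akita and WT, where 6 and 2 had an unadjusted p below 0.05. Of all genes, 13.3%, 1.48% and 7.64% were called in these comparisons, in the same order. Of 9 NF-kB response genes, Bcl3 and Icam1 were called lower in Akita + NACET than in WT + NACET and Bcl3 higher in WT + NACET than in WT. Most of the list did not follow Bcl3 in WT + NACET vs WT, where 3 estimates were positive and 6 negative (median -0.08). In Akita + NACET vs WT + NACET 3 were positive and 6 negative (median -0.23). Bcl3, a nuclear regulator of NF-kB, differed by 3.30 in WT + NACET vs WT and by -2.36 in Akita + NACET vs WT + NACET.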

How the data were processed

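Retinal poly(A) RNA was sequenced in 18 libraries, grouped by the labels. Per the study's methods, the authors made TruSeq libraries, sequenced them single end on a NextSeq instrument, aligned the reads to mm9 with TopHat (2.1.0 in the submitters' processing notes) and counted them over exons with HTSeq (0.11.2) without strand. The deposited values are raw read counts per gene. An entry without a name held 0.00544% of counts on average and was left out, as were the summary entries and 206 ribosomal RNA genes.

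Counts were tested in edgeR 4.0.16 (R 4.3.3) with its quasi-likelihood F test with TMM scaling, the default filter (minimum count 10, minimum total 15) and all 4 groups in 1 fit, for 5 group comparisons and the interaction. The common dispersion was 0.0347. Adjusted p-values follow Benjamini and Hochberg over all 16183 genes, and an adjusted p of at most 0.05 was a call. SEs were derived from the F statistic. The test was checked on simulated data. Log2 CPM used a prior count of 2, and permutation tests drew 100000 permutations or were exact. Genes with low counts have the larger relative error: counts per library ranged from 1 to 769 for the 9 genes. Replicates within each group were compared by a chi-square per gene, which was 4.54 or more in each pair, so no library was a copy of another in its group. Libraries of different groups were not compared in this way.

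The text names the 9 genes in every comparison, genes of a wider complement list that were called or were most abundant in their role, and for each of the 9 with a mean of at least 1 CPM up to 3 of the genes most like it. A few genes that these rules would name are not reported here, although they stay in the counts and sums of their lists. The genes, lists, motifs and alternatives were chosen with earlier results of these data known, and matches to the motifs were seen before the motifs were settled. Alternatives were DESeq2 1.42.0 (all groups or 2 groups) or its size factors, edgeR with 2 groups, other filters, the replicate number as a block, a covariate for the reads outside exons, all ribosomal RNA genes retained, and leaving out each library. Coordinates are mm9 (GENCODE M1), and promoter sequences are from RefSeq (GRCm38.p6).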

Additional observations from a re-analysis of the deposited data

Results flagged for a closer look

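Within groups of 4 to 6 libraries, 3 of 27 sets of values had a highest or lowest library set apart by more than Dixon's 95% critical value, where chance flags about 1 in 20. C1qb was 4.97 CPM in Akita replicate 4, below the other Akita libraries. C1qc was 10.8 CPM in Akita + NACET replicate 3, above the others of its group. C2 was 3.92 CPM in WT + NACET replicate 5, above the others of its group, and without that library and WT replicate 2 the log2 fold change of C2 between Akita + NACET and WT + NACET was 0.15 in place of -0.51, not called in either fit by edgeR (adjusted p = 0.788 and 0.45).

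The difference of C4b between treated and untreated libraries was unlike in the 2 genotypes in the interaction test, by -1.65 on the log2 scale (edgeR adjusted p = 0.0313). This test uses WT + NACET, where NACET and whatever else set those mice apart cannot be told apart. C4b was the 1 gene of the 9 called in it, beside 20.3% of all genes. Its call was lost in 8 of 26 alternative fits.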

How the results depend on the processing

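The number of genes called among the 9 was 0 in every alternative for Akita + NACET vs Akita, Akita + NACET vs WT and Akita vs WT. For Akita + NACET vs WT + NACET it was 5, and fell to 1 with the share outside exons as a covariate and to 3 with the replicate block, and leaving out single libraries gave 2 to 5. DESeq2 with 2 groups added Serping1 to the 5. For WT + NACET vs WT it was 0, and became 1 with the replicate block (C4b, 1.63, adjusted p = 0.0309), 1 with DESeq2 and all groups and 3 with DESeq2 and 2 groups, and 0 to 1 with single libraries left out. For the interaction it was 1, and became 0 without the expression filter, 0 with the covariate and 2 with DESeq2, and 0 to 3 with single libraries left out. The causes were not tested. Fits that leave out a library lose power by their smaller size. The relation to microglia markers passed for 6 genes, and for 3, the C1q genes, with groups centred on their means. Of 1044 alternative estimates, 76 had the opposite sign, and 0 of these were called in either fit. Replicate numbers share only a number: deviations of same-numbered libraries correlated from -0.33 to 0.34 over pairs of groups, so the replicate block does not pair mice. Depth limits Cfb, C2 and C3 most: Cfb had 1 to 16 counts and its intervals span over 2 log2 units. C3 was not tested with a mean count of at least 50.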
